A study of Homo sapiens with 8 samples.

Results

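Acyl-CoA synthetases join a fatty acid or acetate to coenzyme A at the cost of ATP, and the acyl-CoA they make is the form in which the cell oxidises, elongates or esterifies the acid. The ACSM enzymes are mitochondrial and take medium-chain acids, the ACSL enzymes take long-chain acids, and the ACSS enzymes take short-chain acids such as acetate. The genes described here were ACSM3, ACSM1, ACSM5, ACSL1, ACSL3, ACSL4, ACSL5, ACSS1, ACSS2 and ACSS3, chosen by name. Where several probe sets carried only its symbol, the brightest on average stood for a gene. Of the 10 genes, 9 had such a probe set, among 18377 genes with one on the array. ACSL3 had none and was not analysed here.

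The cells were A549, an epithelial line from a human lung adenocarcinoma, kept at an air-liquid interface and harvested 9 hr after a 4-hr exposure. The 4 groups, each of 2 arrays, were cells exposed in the morning to primary pollutants (the fresh urban mix of the labels, hydrocarbons with nitrogen oxides), their morning control in humidified incubator air, cells exposed in the evening to photochemically altered (PCA) pollutants (the aged urban mix, after sunlight had acted on the gases), and their evening control. Each mixture was made once, on a single day, so mixture, time of day and run cannot be told apart, and p-values measure only the spread between the 2 cultures of a group. A549 is 1 cell line, without the fluid layer and the other cell types of the airway. All values below are log2 signals after robust multichip average normalization, or differences between them. A gene was called where limma gave an adjusted p under 0.05 over all probe sets tested and a fold change of at least 1.5.

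All 9 genes with a probe set reached the minimum signal of 30 in every comparison. After PCA pollutants 2 of the 9 were called, both lower: ACSM3, 2.33-fold, and ACSS2, 1.54-fold. Over all genes tested, 2.66% were called lower and 0.882% higher in that comparison. After primary pollutants none of the 9 was called, and 0% of all genes were; at an unadjusted p under 0.05, 2 of the 9 and 1384 of 17381 genes passed.

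**Figure D1:**
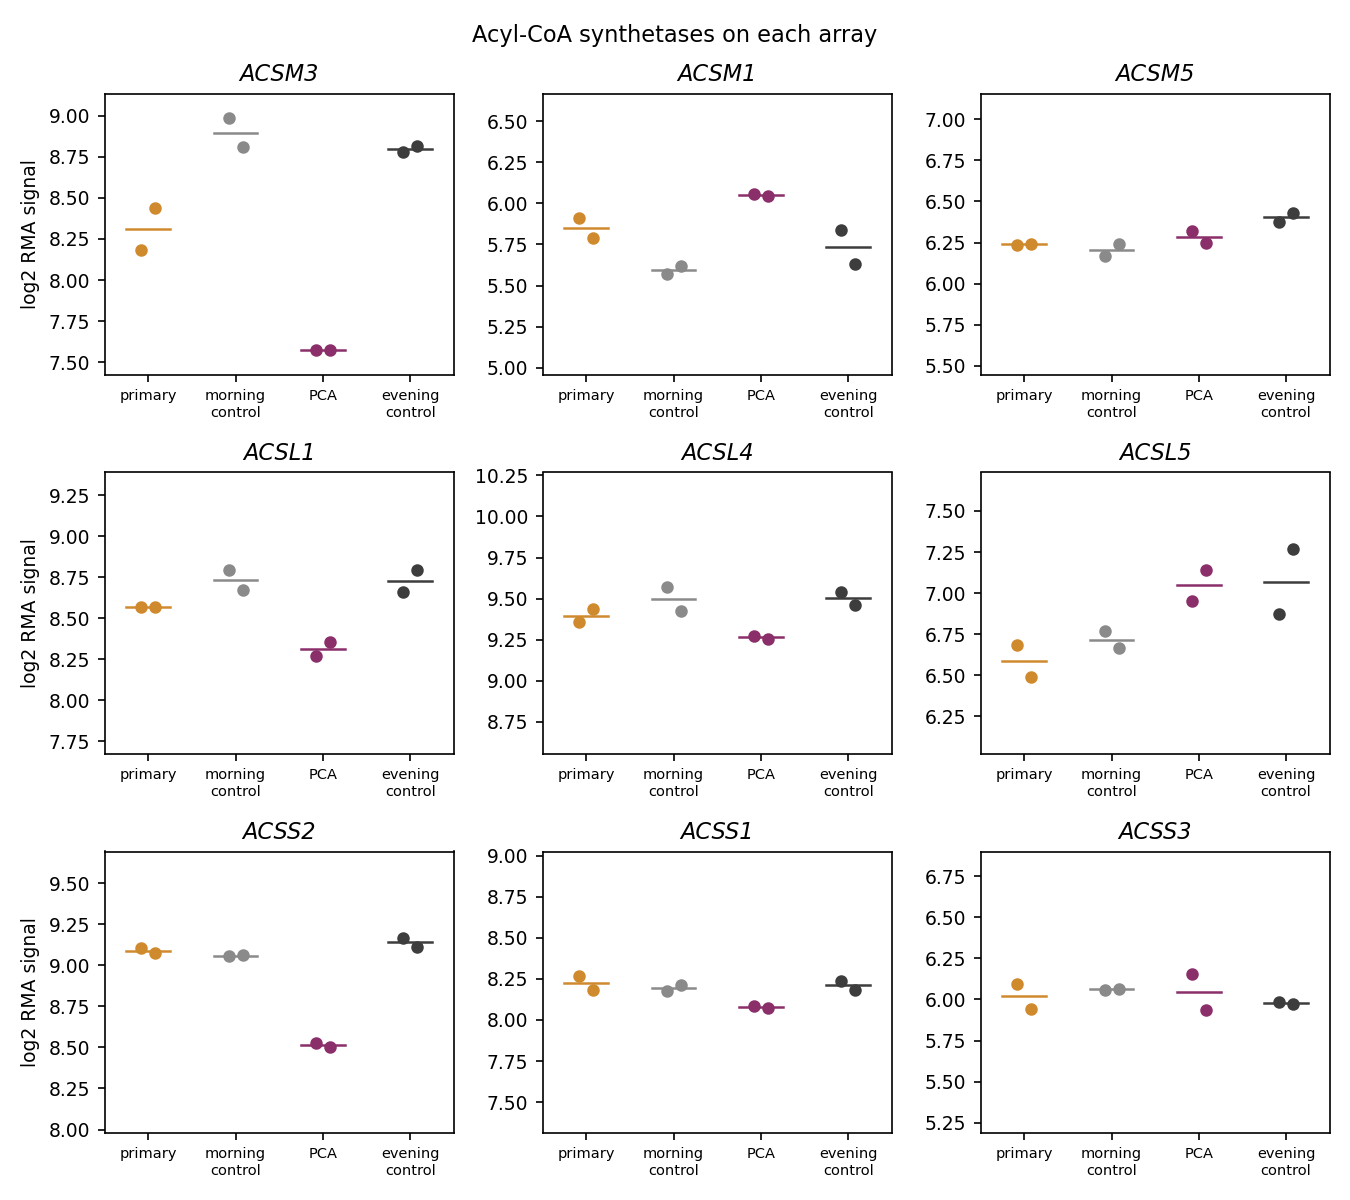
Log2 signal of each acyl-CoA synthetase gene on the 8 arrays, 1 panel per gene and all panels spanning the same log2 range; points are arrays, and lines are means of the 2 arrays of a group. The PCA arrays of ACSM3 (both 7.57) and ACSS2 (8.53 and 8.51) lie below all other arrays of the same gene.

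ACSM3 encodes a medium-chain acyl-CoA synthetase of the mitochondrial matrix and lies on chromosome 16. Its log2 signal was 8.18 and 8.44 after primary pollutants and 8.99 and 8.81 in the morning control. It was 7.57 on both arrays after PCA pollutants and 8.78 and 8.81 in the evening control. Exposed and control arrays did not overlap with either mixture, and the PCA arrays lay below the primary arrays too. Over all genes, arrays lay wholly below their controls for 21.7% after primary pollutants and 36.6% after PCA pollutants. The log2 fold change after PCA pollutants was -1.22 (SE 0.103, n = 2 per group, limma adjusted p = 0.00108; 95% confidence interval -1.46 to -0.98). After primary pollutants it was -0.59 (SE 0.103, limma adjusted p = 0.329), a size past the fold limit that did not pass the test. The change passed where the prior of the spread was trended and robust (limma adjusted p = 0.0351). The PCA response less the primary response was -0.63 (SE 0.146, limma adjusted p = 0.101), not called. The evening control differed from the morning control by -0.10 (95% confidence interval -0.34 to 0.14).

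ACSM3's fall after PCA pollutants was called in 23 of 24 other settings of the analysis, with log2 fold changes between -1.32 and -1.10. The exception was limma's test against the fold limit itself (treat), which gave an adjusted p of 0.0696. It asks whether a change exceeds 1.5-fold rather than 0. Some of the settings could not end the call. ACSM3 has 1 probe set of its own symbol, so choosing or averaging probe sets left its values unchanged. Dropping the fold limit could only add calls. Leaving out a primary or morning control array kept the fold change as it was and altered only the estimate of the spread.

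Neither of the other ACSM genes was called. ACSM1, whose enzyme also takes medium-chain acids, had log2 signals of 5.91 and 5.79 after primary pollutants, against 5.57 and 5.62 in the morning control. After PCA pollutants it had 6.06 and 6.05, against 5.84 and 5.63 in the evening control. Its arrays lay above their controls with both mixtures, as did those of 17% and 31.7% of all genes. The differences were 0.26 after primary pollutants (limma adjusted p = 0.501) and 0.32 after PCA pollutants (limma adjusted p = 0.0444). Neither change reached the fold limit. ACSM5 stayed between 6.17 and 6.43 on all 8 arrays, with log2 fold changes of 0.03 after primary pollutants and -0.12 after PCA pollutants. The RefSeq spans of ACSM1 and ACSM3 overlap, and the probe positions were not examined, so signal from sequence that both share cannot be told apart.

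ACSS2 encodes the enzyme that makes acetyl-CoA from acetate in the cytosol and nucleus, and in many cells it is a target of the sterol regulatory element binding proteins (SREBPs). RefSeq gives ACSS2 2 promoter windows on chromosome 20, each of 250 bases before to 50 bases after a transcript start, shown because it is the called gene with an entry. Capitals mark CCAAT or its reverse, ATTGG, the letters bound by nuclear factor Y, which works beside SREBPs at many sterol genes.
ACSS2 window 1, GRCh38.p14 chr20:34874739-34875038, plus strand: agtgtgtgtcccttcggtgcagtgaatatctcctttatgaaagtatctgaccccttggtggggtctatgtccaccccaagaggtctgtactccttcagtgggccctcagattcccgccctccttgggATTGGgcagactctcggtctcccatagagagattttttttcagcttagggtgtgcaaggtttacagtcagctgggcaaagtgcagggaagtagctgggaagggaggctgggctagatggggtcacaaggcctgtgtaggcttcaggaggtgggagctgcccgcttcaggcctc
ACSS2 window 2, GRCh38.p14 chr20:34876362-34876661, plus strand: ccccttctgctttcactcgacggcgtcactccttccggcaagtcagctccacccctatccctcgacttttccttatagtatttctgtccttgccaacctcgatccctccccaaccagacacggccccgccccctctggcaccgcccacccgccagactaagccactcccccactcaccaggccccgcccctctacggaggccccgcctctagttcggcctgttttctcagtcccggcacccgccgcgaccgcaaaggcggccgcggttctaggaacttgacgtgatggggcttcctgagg

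The first window held 1 ATTGG, beginning at position -123 from the start, and the second held none. Among the 35116 windows of this length counted, which left out chromosome 8, 34.6% held CCAAT or ATTGG. The letters TCACNCCAC or the reverse, GTGGNGTGA, a core of a sterol element, were in neither ACSS2 window and in 1.13% of the windows counted. Of the 15 windows listed for 8 of the 10 genes, 4 held CCAAT or ATTGG and 1, of ACSL1, held the sterol core. Both motifs were searched on both strands, and a match describes the letters only.

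ACSS2 had log2 signals of 9.10 and 9.08 after primary pollutants, against 9.06 and 9.06 in the morning control. After PCA pollutants it had 8.53 and 8.51, against 9.17 and 9.11 in the evening control. The PCA arrays lay below all other arrays of the gene. Primary arrays lay above the morning control, as for 17% of all genes. Evening control arrays lay above the morning control too, as for 22.1% of all genes. The log2 fold change was 0.03 after primary pollutants (SE 0.0667, limma adjusted p = 0.935) and -0.62 after PCA pollutants (SE 0.0668, limma adjusted p = 0.00234; 95% confidence interval -0.78 to -0.47). The evening control differed from the morning control by 0.08 (95% confidence interval -0.08 to 0.23).

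The fall of ACSS2 after PCA pollutants lay close to the fold limit, which its interval spans. It was under that limit with arrays centred on ribosomal protein genes (-0.50), with cyclic loess (-0.51) and when the exposed arrays were set against the other control (-0.54), although the adjusted p stayed under 0.05 in each (0.00526, 0.00444 and 0.00441, limma). Under treat the adjusted p was 1.

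For ACSS2 the PCA response less the primary response was -0.65 (SE 0.0945, limma adjusted p = 0.0392), which was called; it was the 1 gene of the 9 that was, against 0.439% of all genes. This call was fragile. Some settings could not end this call, since ACSS2 has 1 probe set of its own symbol and lifting the fold limit only adds calls. It was made in 7 of 22 other settings, and leaving out any 1 of the 8 arrays ended it, with adjusted p between 0.0722 and 0.205 and differences between -0.68 and -0.62. It also depended on which probe sets entered limma's estimate of the spread: with all probe sets the adjusted p was 0.0525. With the replicate number as a block it was 0.0954.

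ACSS1, the mitochondrial acetate enzyme, had log2 signals of 8.08 and 8.07 after PCA pollutants, against 8.24 and 8.19 in the evening control, a log2 fold change of -0.13 (limma adjusted p = 0.202). After primary pollutants the difference was 0.03, and its arrays overlapped those of the morning control. ACSS3 lay between 5.94 and 6.15 on all arrays, with log2 fold changes of -0.04 after primary pollutants and 0.07 after PCA pollutants.

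Among the long-chain enzymes, ACSL1 supplies acyl-CoA for both oxidation and triglyceride synthesis. Its log2 signals were 8.57 on both arrays after primary pollutants, against 8.79 and 8.67 in the morning control. After PCA pollutants they were 8.27 and 8.35, against 8.66 and 8.79 in the evening control. Exposed arrays were below their controls with each mixture, as were those of 21.7% and 36.6% of all genes. The log2 fold changes were -0.16 after primary pollutants (limma adjusted p = 0.635) and -0.42 after PCA pollutants (limma adjusted p = 0.0148). The second passed the p threshold at a 1.33-fold difference, under the fold limit, and was not called.

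ACSL4, which prefers arachidonate and loads polyunsaturated fatty acids that lipid peroxidation attacks, had 9.27 and 9.26 after PCA pollutants, against 9.54 and 9.46 in the evening control. The log2 fold change was -0.24 (limma adjusted p = 0.072), and after primary pollutants it was -0.10 with overlapping arrays. ACSL5, an enzyme of mitochondria and endoplasmic reticulum, showed the widest replicate spread of the 9, with 6.95 and 7.14 after PCA pollutants, against 6.87 and 7.27 in the evening control. Its log2 fold changes were -0.13 after primary pollutants and -0.02 after PCA pollutants, and the evening control exceeded the morning control by 0.35 (limma adjusted p = 0.999). None of the 9 genes was called between the controls, where 0% of all genes were; at an unadjusted p under 0.05, ACSM5 and ACSL5 passed, and 881 of 17310 genes.

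**Figure D2:**
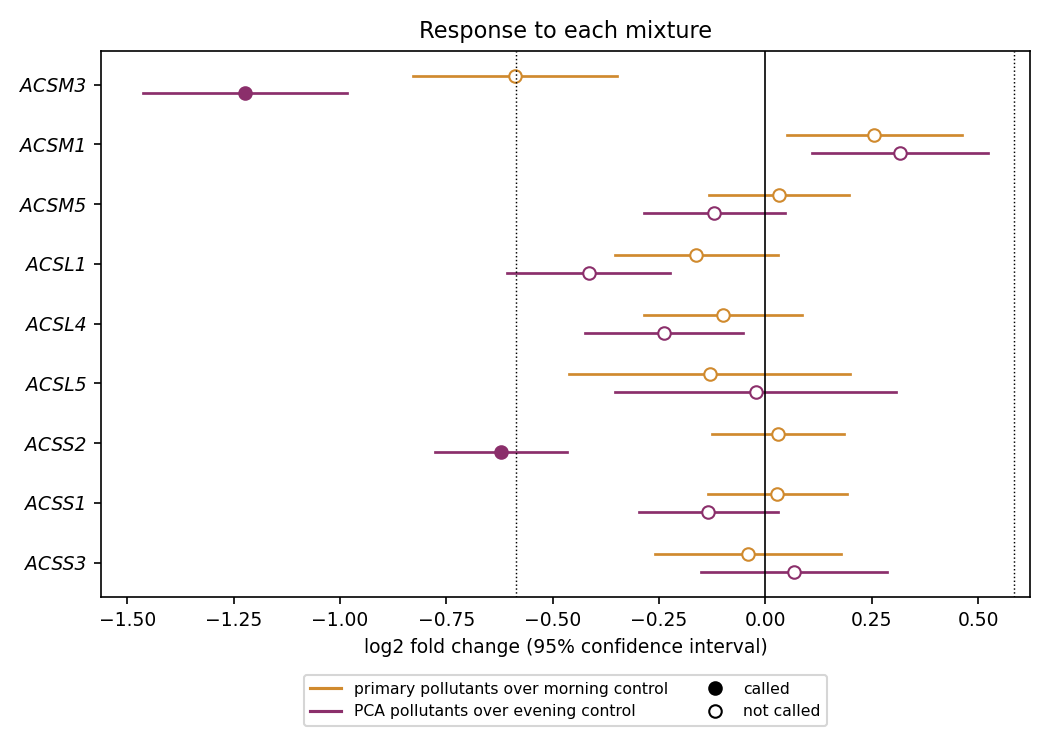
Log2 fold change of each acyl-CoA synthetase gene with its 95% confidence interval from limma, primary pollutants over morning control and PCA pollutants over evening control; filled points were called and dotted lines mark the fold limit of 1.5. ACSM3 (-1.22) and ACSS2 (-0.62) after PCA pollutants are the filled points.

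In direction, 7 of the 9 genes had a log2 fold change below 0 after PCA pollutants, with a median of -0.13, where the median of all genes was -0.0017. PCA arrays lay wholly below the evening control for 6 of the 9 and wholly above it for 1; over all genes these shares were 36.6% and 31.7%. After primary pollutants 5 of the 9 were below 0, with a median of -0.04. Primary arrays lay wholly below the morning control for 2 of the 9 and wholly above it for 2. Over all genes these shares were 21.7% and 17%. Centring the arrays on ribosomal protein genes moved the median of all genes after PCA pollutants to 0.12, so changes smaller than this have no settled direction.

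The 15 other acyl-CoA synthetases with a value (very long-chain, medium-chain and acetoacetate enzymes among them) held no called gene after either mixture, and their median after PCA pollutants was -0.01, or 0.11 with ribosomal protein scaling. ACSF2, a medium-chain enzyme singled out after its values were seen, lay just under the fold limit (log2 fold change -0.58, limma adjusted p = 0.0126) and was called with arrays centred on medians and without PCA replicate 1. AACS, which activates acetoacetate, and AASDH, a relative of the acyl-CoA synthetases, had the smallest p, with log2 fold changes of -0.42 and -0.47 (limma adjusted p = 0.0082 and 0.0116), both under the fold limit. At an unadjusted p under 0.05, 8 of the 15 passed after PCA pollutants, where 6467 of all 17470 genes (37%) did, and 0 passed after primary pollutants.

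The genes that use acyl-CoA in mitochondrial fatty acid oxidation were mostly below their controls by small amounts. After PCA pollutants 18 of 20 were below 0, with a median of -0.26, and none was called; 12 passed at an unadjusted p under 0.05, against 37% of all genes. CPT2, which remakes acyl-CoA inside mitochondria, was at -0.37 and HADH, a dehydrogenase of the oxidation cycle, at -0.36. After primary pollutants 18 of 20 were also below 0, with a median of -0.11 (-0.02 with ribosomal protein scaling), and none was called. The PCA median stayed below 0 under each of the 3 other scalings, at -0.14 with ribosomal protein genes.

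Among 27 genes of acyl-CoA binding and esterification, 2 were called after PCA pollutants, both lower, where 2.66% of all genes were. Of the 27, 19 were below 0, and 18 passed at an unadjusted p under 0.05, against 37% of all genes. MBOAT1, which puts fatty acids back into lysophospholipids, had 7.19 and 7.12 after PCA pollutants, against 8.35 and 8.29 in the evening control (log2 fold change -1.16, limma adjusted p = 0.000665). SOAT1, which esterifies cholesterol, had 9.24 and 9.16, against 9.98 and 9.95 (log2 fold change -0.77, limma adjusted p = 0.00242). The list's median was -0.14, or -0.02 with ribosomal protein scaling and -0.08 with cyclic loess.

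Of 26 SREBP target genes, 2 were called after PCA pollutants, both lower, where 2.66% of all genes were. In this list 19 of the 26 were below 0, and the median was -0.20 (-0.08 with ribosomal protein scaling). At an unadjusted p under 0.05, 15 passed, against 37% of all genes. SCD, the stearoyl-CoA desaturase, had 11.01 and 11.08 after PCA pollutants, against 11.79 and 11.64 in the evening control (log2 fold change -0.67, limma adjusted p = 0.00281). ELOVL6, which lengthens palmitoyl-CoA, had 8.60 and 8.32, against 9.17 and 9.04 (log2 fold change -0.64, limma adjusted p = 0.00803). Both were under the fold limit with ribosomal or cyclic loess scaling and with exchanged controls, as ACSS2 was, and ELOVL6 lost its call without PCA replicate 2 and without evening control replicate 1. After primary pollutants the median of the 26 was 0.01 and none was called.

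Among 23 genes of acetyl-CoA supply and use, PDK2, a kinase that restrains pyruvate dehydrogenase, fell after PCA pollutants (log2 fold change -0.82, limma adjusted p = 0.00179). It was the 1 gene of the 23 called, where 2.66% of all genes were called lower. The median was -0.24 (-0.12 with ribosomal protein scaling). At an unadjusted p under 0.05, 14 of the 23 passed, against 37% of all genes. Among 20 PPAR receptors and target genes, EHHADH, of peroxisomal oxidation, fell (log2 fold change -0.68, limma adjusted p = 0.00246), though by less than the fold limit with ribosomal protein scaling (-0.56). It was the 1 gene of the 20 called, against the same 2.66%. The median was 0.03, or -0.03 with arrays centred on medians. Of the 20, 12 passed at an unadjusted p under 0.05, against 37% of all genes. The 13 acyl-CoA thioesterases, 14 genes of lipid peroxidation and its restraint and 3 genes of glycine conjugation held no called gene, with medians of 0.03 (-0.03 with arrays centred on medians), -0.14 (-0.02 with ribosomal protein scaling) and 0.21. At an unadjusted p under 0.05, 5, 7 and 1 of them passed, against 37% of all genes. The smallest p in these 3 lists belonged to ACOT13 (-0.50), LPCAT3 (-0.57) and GLYATL1 (0.34). No gene of any of the 9 lists was called after primary pollutants.

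**Figure D3:**
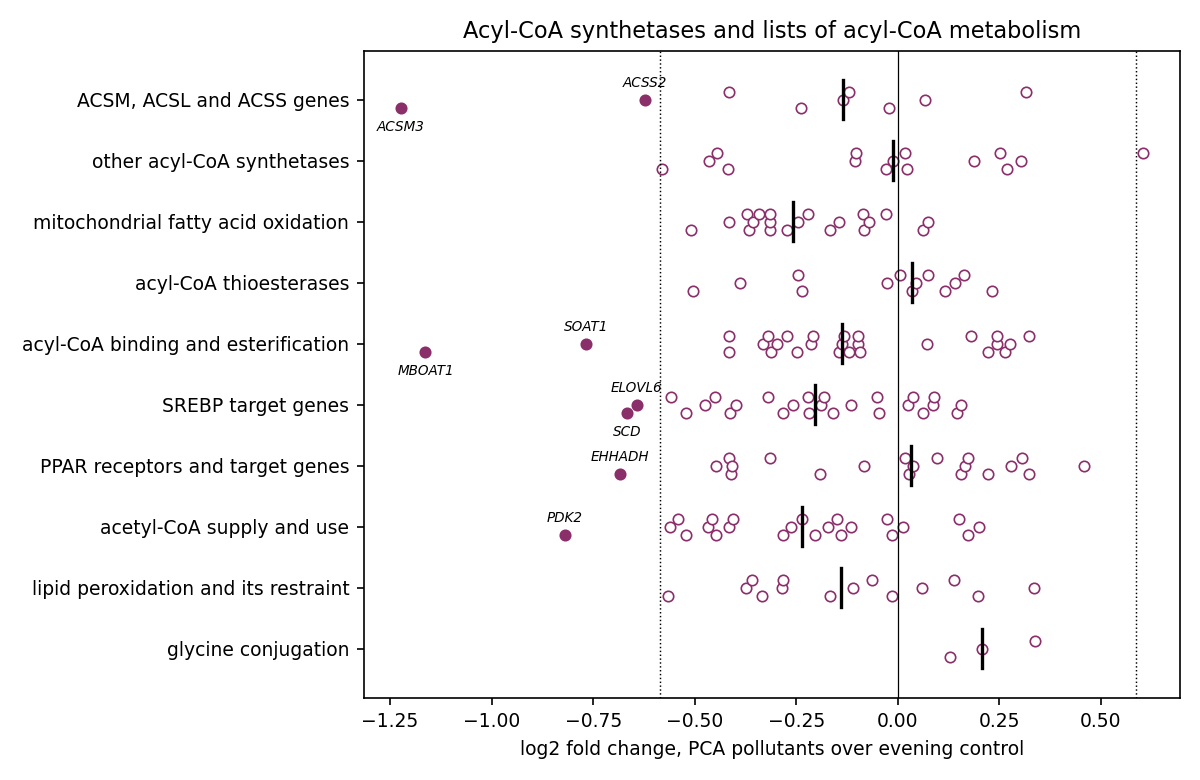
Log2 fold change of PCA pollutants over evening control for each gene with a value, by list; filled points were called, black bars are list medians and dotted lines mark the fold limit of 1.5. ACSM3, ACSS2, MBOAT1, SOAT1, SCD, ELOVL6, EHHADH and PDK2 are the filled points, all to the left of 0.

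In the chromosomal order of RefSeq, ACSM3 lies at the edge of the ACSM cluster, with ACSM1, ACSM2B, ACSM2A and ACSM5 on one side and THUMPD1, ERI2, REXO5, DCUN1D3 and LYRM1 on the other. No neighbour with a value was called. After PCA pollutants THUMPD1 (-0.42), ERI2 (-0.37), REXO5 (-0.31) and LYRM1 (-0.39) were below 0 by less than ACSM3, with REXO5 at -0.12 without PCA replicate 2 and -0.51 without PCA replicate 1, and DCUN1D3 was at 0.03, or -0.03 with arrays centred on medians. On the ACSM side, ACSM2A was at 0.60 (SE 0.190, limma adjusted p = 0.0609), with PCA arrays of 5.79 and 6.42, against 5.63 and 5.38 in the evening control. Without PCA replicate 2 it was at 0.29 and without PCA replicate 1 at 0.92, where it was called, as it was with ribosomal protein scaling and with the trended and robust prior. ACSM2A and ACSM2B are near-identical and share probe sets, so the value is uncertain. The 2 probe sets that carry both symbols were at 0.35 and 0.34 (limma adjusted p = 0.0162 and 0.0287), under the fold limit.

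**Figure D4:**
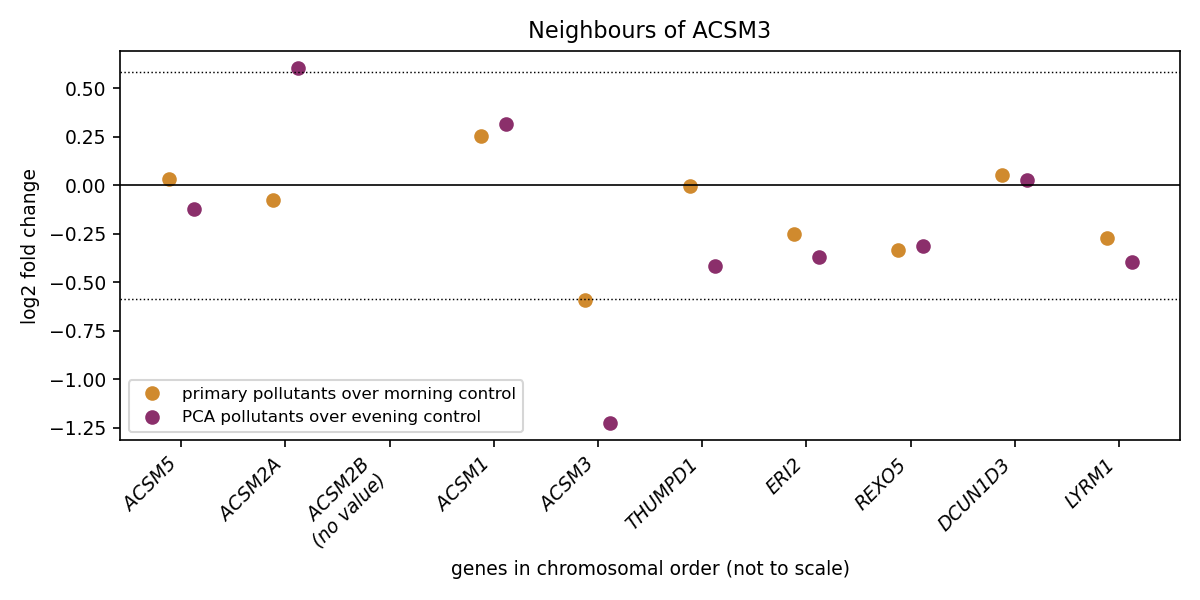
Log2 fold change of ACSM3 and its neighbours in chromosomal order, not to scale, for primary pollutants over morning control and PCA pollutants over evening control; dotted lines mark the fold limit of 1.5. ACSM3 after PCA pollutants (-1.22) is below every neighbour shown, and ACSM1 (0.32) and ACSM2A (0.60) are above 0.

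Across the 8 arrays the profiles most like that of ACSM3, by Pearson's r, were those of TMEM14A (0.999), TRAPPC6A (0.997), TMEM107 (0.992), POFUT1 (0.992) and GLT8D1 (0.991). Those most like ACSS2 were GOLGB1 (0.996), EZH1 (0.993), FADS1 (0.993), FADS2 (0.993) and GANAB (0.992). FADS1 and FADS2 are fatty acid desaturases, with log2 fold changes of -0.56 and -0.47 after PCA pollutants and -0.03 and 0.00065 after primary pollutants. The 8 arrays form 4 groups, and 1513 genes exceeded an r of 0.9 with ACSM3 and 1300 with ACSS2 among 17539 compared.

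Measures of the whole arrays also differed between groups. The standard deviation of all log2 values was 1.98 and 1.99 on the PCA arrays, against 2.07 on each evening control array. The mean log2 signal of 5 epithelial markers was 10.87 to 10.92 after PCA pollutants, against 11.20 to 11.27 in the evening control, and 11.01 to 11.05 after primary pollutants, against 11.23 to 11.34 in the morning control. One of the 5, CDH1, the adhesion protein E-cadherin, fell after PCA pollutants (log2 fold change -1.11, limma adjusted p = 0.000665). The 5 did not move alike: 4 were below 0 after PCA pollutants, with a median of -0.17, and only CDH1 passed an unadjusted p under 0.05. KRT19 was higher, with 9.00 on both PCA arrays, against 8.86 and 8.87 in the evening control. Lists of alveolar type II, immune, endothelial and fibroblast markers held no called gene, at mean log2 signals of 6.51 to 6.73, 5.40 to 5.63, 5.58 to 5.85 and 6.53 to 6.69 over all arrays. The paper also measured more cell death, by release of lactate dehydrogenase, after PCA than after primary pollutants. It considered its expression differences unlikely to be related to this. The part of cell death or of these array differences in the values of ACSM3 and ACSS2 was not tested. Within the line, fewer cells of a kind cannot be told apart from less RNA per cell.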

How the data were processed

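The authors hybridised RNA from A549 cells to Affymetrix Human Gene ST arrays (4 groups of 2), normalized them by robust multichip average and deposited log2 values for 28869 probe sets. The submitters' processing notes name Partek 6.4. The genome build behind the probe sets is not given in the sources used here. Gene symbols came from the platform annotation, updated through RefSeq: 19310 probe sets had 1 symbol, 1752 several and 7807 none. The number of arrays limits the precision.

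Probe sets that reached a signal of 30 on at least 1 array of a comparison were fitted with limma 3.58.1 (lmFit, eBayes; R 4.3.3) on all 8 arrays as 4 group means, and p-values were adjusted by Benjamini-Hochberg over the probe sets tested. The methods' analysis of variance is an alternative. Residual degrees of freedom were 4. On simulated data the fit was tested before use.

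The genes and the lists were chosen with earlier results of these data known. The plan did not say which probe sets enter the prior of the spread. Filtering before the fit, over any of the 8 arrays and not at all before the fit were each run with results in view; the first, closest to the plan, was kept, after the second had been preferred for a time because its values matched an earlier account of these data. The choice of a gene's probe set by mean linear signal or mean log2 value was likewise tried both ways, and linear was kept. All these are reported as alternatives. Named genes were, per list, the called genes (at most 5) or else the 2 with the smallest p, and the 5 genes most like ACSM3 or ACSS2 over the arrays. The neighbours of ACSM3 and the promoter motifs are descriptions.

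Alternatives covered the signal filter, normalization, arrays fitted, prior, test, fold limit, summary of probe sets, control used, replicate block and each array left out; the lists and genes outside the family were rerun under these after the data had been seen. The labels do not say whether replicate numbers pair the arrays, so the main fit did not pair them.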

Additional observations from a re-analysis of the deposited data

Results flagged for a closer look

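The PCA response and the primary response differed by a test of the difference itself (limma, n = 2 per group) for 3 of the genes named here. Of all genes tested, 0.439% were called for this difference. ACSS2 had a difference of -0.65 on the log2 scale (SE 0.0945, limma adjusted p = 0.0392), MBOAT1 of -0.88 (SE 0.114, limma adjusted p = 0.0359) and CDH1 of -0.70 (SE 0.102, limma adjusted p = 0.0392). Leaving out any 1 of the 8 arrays ended all 3 calls. In each, both PCA arrays lay below both evening control arrays, as for 36.6% of all genes. The same arrays gave the calls, so this separation is no further support. No value is given a cause, since each mixture was a single run at its own time of day. Groups of 2 arrays are too small for a search for outlying arrays.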

How the results depend on the processing

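With 2 arrays a group, small changes carry wide intervals, and the synthetases near 6 on the log2 scale (ACSM1, ACSM5, ACSS3) have signals not far above the minimum. Of the 9 synthetases, 2 were called after PCA pollutants: 1 (ACSM3) with ribosomal protein scaling, cyclic loess or exchanged controls, 0 under treat and 4 (ACSM1 and ACSL1 added) with no fold limit. After primary pollutants 0 were called, and 1 (ACSM3) with the trended and robust prior. For the difference between responses 1 was called (ACSS2): 2 (ACSM3 added) with that prior or a minimum signal of 100, and 0 with no signal filter, ribosomal protein scaling, cyclic loess, unmoderated analysis of variance, treat, the replicate block, all probe sets in the prior (added after seeing the data) and without each array in turn (0 to 0). The cause was not tested. Over all genes the difference gave 77 calls, 279 with the trended and robust prior, 247 at a minimum signal of 100, 54 with all probe sets in the prior, 16 with no filter, 2 with the replicate block, 1 with analysis of variance, 0 under treat and 0 to 3 without 1 array. The PCA comparison gave 619 calls, 24.9% of them higher (13.4% with median centring, 62% with ribosomal protein scaling), 28 calls under treat and 3473 with no fold limit. The prior over probe sets above the limit on any of the 8 arrays, also added after seeing the data, changed no count of called synthetases. The choice of probe set by mean log2 value, added then too, could not change one. Each of the 9 has 1 probe set of its own symbol.

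Correlations of same-numbered arrays' deviations from their group means were between -0.081 and 0.039 for the pairs of groups compared. Low correlations over all probe sets cannot show that the arrays were unpaired, so this stays unknown. The replicate block ended the ACSS2 call for the difference between responses and changed no other call of a synthetase.

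Uncalled changes near 0 changed sign as follows. After primary pollutants, ACSS3 was 0.0582 with ribosomal protein scaling and 0.0433 with exchanged controls, ACSM5 -0.00211 with cyclic loess and -0.165 with exchanged controls, and ACSS2 -0.0502 with exchanged controls. After PCA pollutants, ACSL5 was 0.0974 with ribosomal protein scaling and 0.33 with exchanged controls, ACSS3 -0.0702 with cyclic loess and -0.0164 with exchanged controls, ACSM5 0.0768 with exchanged controls, and DCUN1D3 -0.0313 with median centring. ACSM1's difference between responses was -0.0419 with cyclic loess. Between controls, ACSL4 was -0.0044 with median centring, and ACSL1 0.0933 and ACSS3 0.015 with ribosomal protein scaling. Without 1 array, ranges after primary pollutants were -0.0138 to 0.0706 for ACSS1, -0.116 to 0.0349 for ACSS3 and -0.00358 to 0.0687 for ACSM5. After PCA pollutants they were -0.222 to 0.177 for ACSL5, -0.0422 to 0.177 for ACSS3 and -0.0265 to 0.0851 for DCUN1D3. For the difference between responses they were -0.0418 to 0.16 for ACSM1, -0.0014 to 0.218 for ACSS3 and -0.0912 to 0.308 for ACSL5. Between controls they were -0.073 to 0.0614 for ACSL1, -0.0655 to 0.0778 for ACSL4 and -0.00973 to 0.0439 for ACSS1.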
